A study of Mus musculus with 12 samples.

Results

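The mesenchymal state of U2OS cells, a human osteosarcoma line, was described through 10 genes: VIM, FN1, CDH2, CDH1, S100A4, SNAI1, SNAI2, TWIST1, ZEB1 and ZEB2. They were chosen by name, with earlier results of these data known, and each was found by its full name among the 58735 genes of the deposited table. Over the libraries 8 of them had a mean of at least 0.5 FPKM (sequenced fragments divided by gene length and by library size) and were tested. TWIST1 and ZEB2 did not reach that level and are described by their reads. RNA was sequenced from 12 libraries in 4 groups of 3 replicates. The groups were U2OS labelled blank, U2OS with siSRSF1-2 or with siSRSF1-3, which are siRNAs against the splicing factor SRSF1, and U2OS upregulated for the long non-coding RNA LINC01134 (OE-LINC01134). The design asks how depletion of SRSF1 and a gain of LINC01134 change the transcripts of these cells. No library with a control siRNA or an empty vector was analysed here, so the effect of the transfection and that of the siRNA or the transgene cannot be told apart. The labels give neither dose nor time for these libraries, and they do not say whether replicates came from separate cultures, so the p-values measure the spread between these libraries. The labels name mouse as the organism, although the gene identifiers are human Ensembl identifiers and U2OS is a human line.

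Epithelial cells hold to each other through E-cadherin, the product of CDH1, and carry keratin filaments. In the epithelial to mesenchymal transition (EMT), transcription factors of the Snail, ZEB and TWIST families repress CDH1, and the cell gains N-cadherin (CDH2), vimentin filaments (VIM), a fibronectin matrix (FN1) and S100A4, a calcium-binding protein linked to cell movement. Osteosarcoma arises from mesenchymal cells, so a mesenchymal pattern is the usual state of such lines.

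Reads per gene could be recovered from FPKM and gene length, and the libraries held 26237763 to 32954539 reads assigned to genes. The targeted genes followed the labels: LINC01134 was at 878 to 1279 FPKM in the OE-LINC01134 libraries and at 0.497 to 1.11 FPKM in the other libraries, and SRSF1 was at 3.33 to 7.90 FPKM in the 6 siRNA libraries and at 19.8 to 35.9 FPKM in the other 6. Libraries stood apart within their groups. Over the genes tested, OE-LINC01134 replicate 2 correlated best with blank replicate 1 (r = 0.952 on the log2 scale, against at most 0.941 with its own group), blank replicate 1 correlated best with OE-LINC01134 replicate 2, and siSRSF1-3 replicate 3 correlated best with siSRSF1-2 replicate 1 (r = 0.960, against at most 0.922 with its own group). The libraries of siSRSF1-2, blank replicates 2 and 3, and OE-LINC01134 replicates 1 and 3 were close to each other, with 15.27% to 21.99% of genes differing beyond counting error at an unadjusted chi-square p under 0.05, against 58.6% to 75.5% in the other pairs within a group. Values without such a library are given below where they changed a call or moved a value most.

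In blank cells the members spanned the whole range of expression. VIM ranked 110 among 19951 protein-coding genes by mean FPKM and FN1 ranked 434. S100A4 ranked 2655 and CDH2 ranked 4078, followed by SNAI1 at 6115, ZEB1 at 6366 and SNAI2 at 6518. CDH1 ranked 12441, with TWIST1 at 14483 and ZEB2 at 16003. In blank cells the neighbours SNAI1, ZEB1 and SNAI2 were at 6.33 ± 1.45, 5.94 ± 0.576 and 5.70 ± 2.07 FPKM (SD, n = 3), which differed by less than their spread. Means of cell type markers were taken over all 12 libraries and not over the blank ones alone. By these, mesenchymal markers were expressed together with part of the epithelial ones. Of 12 mesenchymal markers 9 had a mean over 0.5 FPKM, as did 7 of 11 epithelial markers. The epithelial markers above that level were EPCAM, CDH1, KRT8, KRT18, CLDN4, ESRP1 and OVOL2, while GRHL2 stayed below 0.1 FPKM in every library, as did the collagen gene COL1A2 among the mesenchymal markers. Among osteoblast markers, RUNX2 and ALPL had a mean over 0.5 FPKM and IBSP was below 0.1 FPKM in every library. None of 5 leukocyte, 5 endothelial or 6 melanocyte and neural markers had a mean over 0.5 FPKM, and PTPRC, KDR and SOX10 were below 0.1 FPKM in every library.

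**Figure D1:**
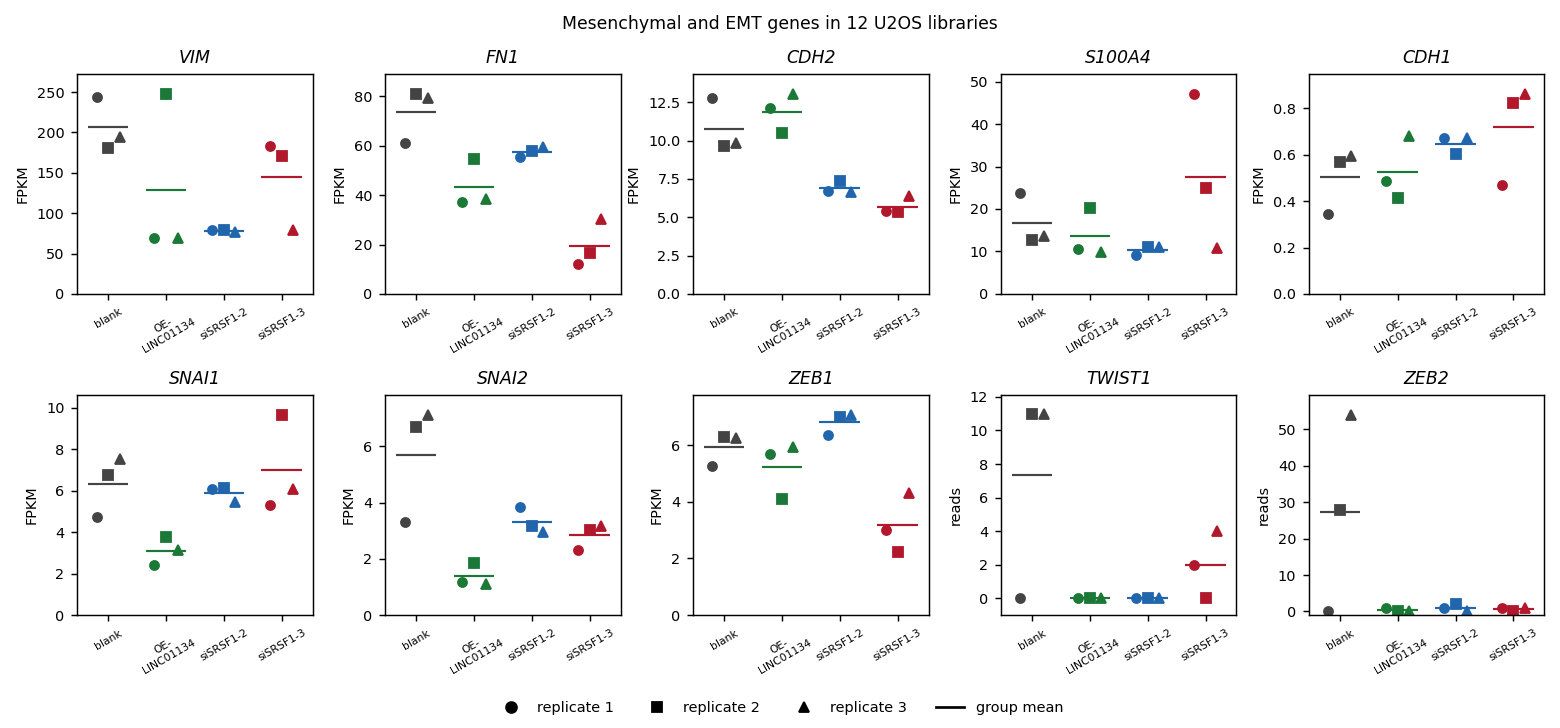
Levels of the 10 members in each library, in FPKM for the 8 genes tested and in reads for TWIST1 and ZEB2, with 1 point per replicate and a line at the group mean. VIM sits between 68.7 and 79.4 FPKM in 6 libraries and between 171 and 248 FPKM in the other 6, and it is split within the OE-LINC01134 and siSRSF1-3 groups.

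Groups were compared with limma on log2(FPKM + 0.1), and a gene passed with a Benjamini-Hochberg adjusted p under 0.05 over 17538 genes and an absolute log2 fold change over 1. Fold changes are differences on that scale. With siSRSF1-2, 1 of the 8 members passed: VIM, which fell. Over all genes tested 4.95% passed in this comparison, with 2.73% lower and 2.22% higher, and 40.3% had an unadjusted p under 0.05, as did 4 members. In siSRSF1-3 against blank cells 0 of 8 members passed, where 1.26% of all genes did (1.28% by the adjusted p alone), and 4 members had an unadjusted p under 0.05 (28.8% of all genes), while voom on the recovered reads called 1. With OE-LINC01134 0 of 8 members passed, where 0.85% of all genes did, and 3 members had an unadjusted p under 0.05 (26.3% of all genes), while voom called 1. Between siSRSF1-3 and siSRSF1-2 0 of 8 passed, against 0.0855% of all genes (0.0342% higher and 0.0513% lower), and 2 members had an unadjusted p under 0.05 (42.1% of all genes), while voom called 0. The 3 comparisons with blank cells share the blank libraries. SRSF1, the siRNA target, missed the threshold itself in siSRSF1-3 against blank cells, at -2.09 on the log2 scale (adjusted p = 0.0518, limma). In siSRSF1-2 against blank cells SRSF1 passed, at -1.72 (adjusted p = 0.00500, limma). A missing call with siSRSF1-3 therefore does not show that a gene stayed unchanged.

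The groups of libraries often did not overlap, and this was common among all genes. With siSRSF1-2, 4 members lay below every blank library and 2 above, where 24.2% and 25.3% of all genes did so (49.5% in all). With siSRSF1-3, 4 members lay below and 0 above, where 18% and 19.2% of all genes did so (37.2% in all). With OE-LINC01134, 3 members lay below and 0 above, where 13.8% and 16.8% of all genes did so (30.6% in all). Between the siRNAs, 3 members were lower with siSRSF1-3 and 1 was higher without overlap, where 27.6% and 27% of all genes were (54.6% in all). Separations over several groups at once, given below for FN1, CDH2, SNAI1 and ratios of members, were not counted over all genes. They are therefore not shown to be particular to these genes.

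**Figure D2:**
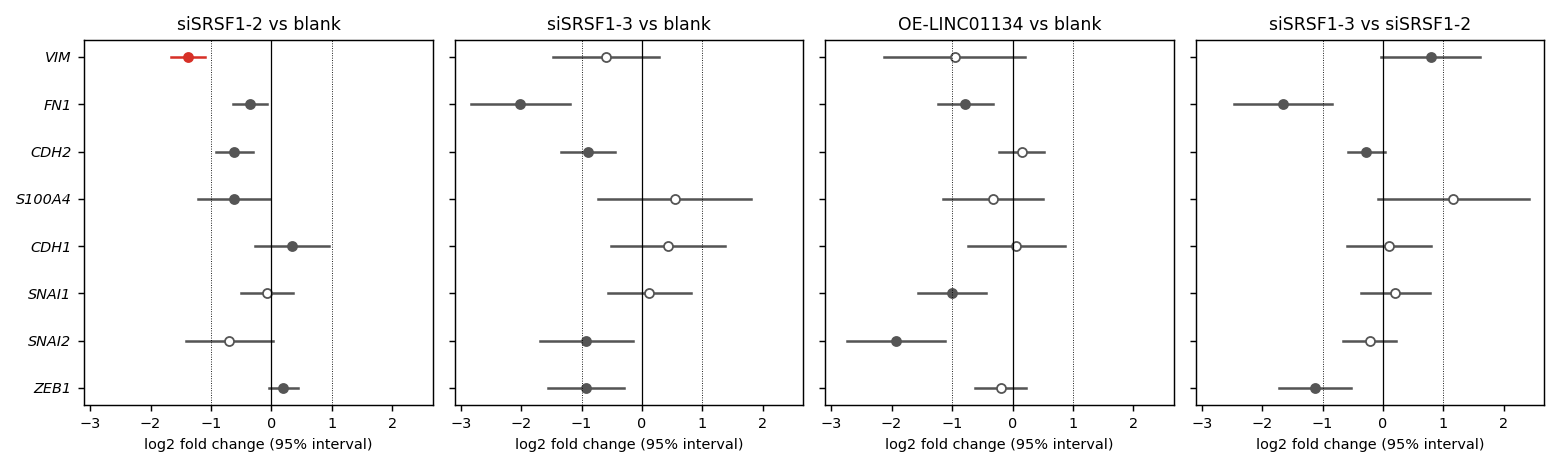
Log2 fold change of the 8 tested members with its 95% interval in the 4 comparisons, from limma on log2(FPKM + 0.1). Filled points mark groups of libraries that do not overlap, red marks the member past the threshold, which is VIM with siSRSF1-2, and dotted lines stand at a log2 fold change of -1 and 1.

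VIM (ENSG00000026025, chromosome 10 from 17228259 to 17237593 in the files) codes for vimentin, the intermediate filament protein of mesenchymal cells. It was at 244, 181 and 195 FPKM in the blank libraries and at 79.1, 79.1 and 77.3 FPKM with siSRSF1-2. The siSRSF1-2 libraries all lay far below the blank ones, and VIM fell by 1.39 on the log2 scale (SE 0.115, 95% interval -1.66 to -1.11, adjusted p = 0.00148 from limma). The mean went from 207 ± 33.2 FPKM in blank cells to 78.5 ± 1.05 FPKM with siSRSF1-2 (SD, n = 3). The call held when any single library was left out, with log2 fold changes from -1.47 to -1.26 and adjusted p from 3.55e-05 to 0.0164, but in 1 fit over all 4 groups the adjusted p was 0.115. That fit shares the spread of the other groups, in which VIM varied more.

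With siSRSF1-3, VIM was at 183, 171 and 79.4 FPKM, so replicate 1 was within the blank range, replicate 2 just below it and replicate 3 was at the siSRSF1-2 level. VIM differed from blank cells by -0.60 on the log2 scale (95% interval -1.47 to 0.28, adjusted p = 0.301), and without siSRSF1-3 replicate 3 it was -0.21. With FPKM brought to an equal sum per library it was -1.04, and it passed in 0 of the 10 other settings. Between the siRNAs, VIM in siSRSF1-3 against siSRSF1-2 was at 0.79 as deposited and at 0.21 with equal sums. With equal sums the median of all genes moved from -0.01 to -0.44 in the first comparison and from -0.02 to -0.58 in the second. In the OE-LINC01134 libraries VIM was at 68.7, 248 and 69.4 FPKM, so that replicate 2 lay above every blank library and replicates 1 and 3 lay below every one. The highest library was 3.603 times the lowest in this group, against 1.35 times in blank cells. The log2 fold change was -0.96 (95% interval -2.12 to 0.21, adjusted p = 0.261). Without OE-LINC01134 replicate 2 it was -1.57 with an adjusted p of 0.00614, past the threshold, where the adjusted p over the omissions of single libraries ranged from 0.00614 to 0.588. The split of VIM thus ran along the libraries that stood apart over all genes. Whether the state of those libraries accounts for it was not tested. In these bulk samples fewer cells with much VIM and less VIM RNA per cell cannot be told apart.

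VIM overlaps its antisense transcript VIM-AS1, and the strand setting of the counting is not given in the sources used here. VIM-AS1 held 4853 reads over the 12 libraries and VIM 241394, so an exchange of reads between them could move VIM by little. VIM-AS1 was at 5.64 to 9.95 FPKM over the libraries, and with siSRSF1-2 it differed by -0.36 on the log2 scale (adjusted p = 0.0152), short of the fold threshold.

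FN1 (ENSG00000115414, chromosome 2 from 215360440 to 215436172) codes for fibronectin, a matrix protein that mesenchymal cells secrete and bind through integrins. It was at 61.3, 80.9 and 79.4 FPKM in blank cells and at 55.4, 57.8 and 59.3 FPKM with siSRSF1-2. With siSRSF1-3 it was at 11.99, 16.4 and 30.2 FPKM, and all 3 libraries lay below every other library of the series. Replicate 3 was the highest of them. The log2 fold change of siSRSF1-3 against blank cells was -2.01 (SE 0.349, 95% interval -2.84 to -1.19, adjusted p = 0.0505 from limma), just short of the threshold in spite of its size. It passed under 4 of the 10 other settings, with a pseudocount of 1, with a minimum mean of 1 FPKM, in 1 fit over all groups and with voom. Leaving out siSRSF1-3 replicate 3 gave -2.38 (adjusted p = 0.00982), and over the omissions of single libraries the adjusted p ranged from 0.00982 to 0.231.

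With siSRSF1-2 the log2 fold change of FN1 was -0.35 (95% interval -0.63 to -0.07, adjusted p = 0.0730). Between the siRNAs, FN1 in siSRSF1-3 against siSRSF1-2 was at -1.66 (95% interval -2.47 to -0.85, adjusted p = 0.0731), and without siSRSF1-3 replicate 3 it was -2.03 (adjusted p = 0.00135, with a range of 0.00135 to 0.240 over the omissions). In the OE-LINC01134 libraries FN1 was at 37.2, 54.6 and 38.3 FPKM, again all below the blank range, with replicate 2 nearest to it. This difference was -0.78 on the log2 scale (95% interval -1.23 to -0.33, adjusted p = 0.0793) and -0.96 without replicate 2.

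VIM and FN1 had different patterns, and the ranges of their ratio did not overlap between the siRNAs. VIM over FN1 in FPKM was 2.24 to 3.99 in blank cells and 1.30 to 1.43 with siSRSF1-2. It was 15.3 and 10.4 in siSRSF1-3 replicates 1 and 2 and 2.63 in replicate 3. In the OE-LINC01134 libraries it was 1.85, 4.54 and 1.81. Over the 12 libraries, which hold 4 groups and close replicates, the correlation of VIM and FN1 was r = 0.01 on the log2 scale.

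CDH2 (ENSG00000170558, chromosome 18 from 27950966 to 28177446) codes for N-cadherin, the adhesion protein that mesenchymal and neural cells carry in place of E-cadherin. It was at 12.8, 9.63 and 9.82 FPKM in blank cells and at 12.1, 10.5 and 13.05 FPKM with OE-LINC01134. In the siSRSF1-2 libraries CDH2 was at 6.72, 7.37 and 6.66 FPKM, and with siSRSF1-3 at 5.39, 5.32 and 6.39 FPKM. Every siRNA library lay below every blank and every OE-LINC01134 library, siSRSF1-3 replicate 3 included. The share of all genes separated in this way was not counted. CDH2 was the member whose replicates held together best across the series, with a highest library of at most 1.33 times the lowest in any group.

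With siSRSF1-2 the log2 fold change of CDH2 was -0.62 (SE 0.126, 95% interval -0.92 to -0.31, adjusted p = 0.0171), past the p threshold, as were 26.8% of all genes, and short of the fold threshold. Over the omissions of single libraries its adjusted p ranged from 0.00118 to 0.0744. With siSRSF1-3 it was -0.90 (95% interval -1.34 to -0.45, adjusted p = 0.0621). The siRNAs differed by -0.28 (95% interval -0.58 to 0.02, adjusted p = 0.138), siSRSF1-3 against siSRSF1-2. With OE-LINC01134 the log2 fold change was 0.15 (95% interval -0.22 to 0.52, adjusted p = 0.560). With FPKM brought to an equal sum per library, the value for siSRSF1-3 against blank cells became -1.33, in step with a shift of all genes: the median of all genes moved from -0.01 to -0.44 in that setting and to -0.26 when library size was the library's own reads.

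CDH1 (ENSG00000039068, chromosome 16 from 68737225 to 68835548), the E-cadherin gene, was low throughout, with 57 to 166 reads per library. It was at 0.345, 0.570 and 0.594 FPKM in blank cells and at 0.486, 0.415 and 0.680 FPKM with OE-LINC01134. With siSRSF1-2 it was at 0.671, 0.603 and 0.671 FPKM, and with siSRSF1-3 at 0.471, 0.821 and 0.862 FPKM. The siSRSF1-2 libraries lay above the blank ones by a narrow margin, and the other groups overlapped. The log2 fold change was 0.34 with siSRSF1-2 (95% interval -0.28 to 0.95, adjusted p = 0.360), 0.43 with siSRSF1-3 (95% interval -0.51 to 1.37, adjusted p = 0.478) and 0.06 with OE-LINC01134 (95% interval -0.74 to 0.86, adjusted p = 0.924). The siSRSF1-3 interval includes a rise of 1 log2 unit, so a rise of that size remains possible there.

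CDH2 exceeded CDH1 in every library. CDH2 over CDH1 in FPKM was 37.1, 16.9 and 16.5 in blank cells and 25.0, 25.3 and 19.2 with OE-LINC01134. It was 10.02, 12.2 and 9.93 with siSRSF1-2 and 11.4, 6.48 and 7.42 with siSRSF1-3, so all 6 siRNA libraries had a lower ratio than the other 6. Blank replicate 1, with the fewest CDH1 reads of its group (59, against 100 and 120), gave the highest ratio.

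Among 18 classical and related cadherins, 7 had a mean of at least 0.5 FPKM. By group mean CDH2 was second to CDH24 in blank cells (10.8 against 11.04 FPKM) and with OE-LINC01134 (11.9 against 13.1 FPKM), with CDH4 (R-cadherin) just below it, and below both CDH4 and CDH24 with each siRNA. CDH2 made up 24.7% to 26.6% of the summed cadherin FPKM in blank libraries, 14.4% to 16.1% with siSRSF1-2 and 10.7% to 12.9% with siSRSF1-3. CDH4 went the other way from CDH2: it was at 11.8, 9.49 and 9.12 FPKM in blank cells, at 19.5, 18.7 and 19.3 FPKM with siSRSF1-2 and at 22.9, 22.5 and 22.7 FPKM with siSRSF1-3. It rose with siSRSF1-3 (log2 fold change 1.16, 95% interval 0.76 to 1.57, adjusted p = 0.0453), a call that was lost with each omission of a single library other than siSRSF1-3 replicate 3, and under both other scalings, where the direction stayed and the fold fell short of the threshold. With siSRSF1-2 its log2 fold change was 0.92 (95% interval 0.66 to 1.18, adjusted p = 0.00341), short of the fold threshold. With OE-LINC01134, CDH4 was at 9.97 to 10.5 FPKM.

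S100A4 (ENSG00000196154, chromosome 1 from 153543613 to 153550136) codes for a calcium-binding protein also known as fibroblast-specific protein, which binds myosin and is linked to cell movement. It was at 23.8, 12.6 and 13.7 FPKM in blank cells and at 10.5, 20.3 and 9.86 FPKM with OE-LINC01134. With siSRSF1-2 it was at 9.21, 10.999 and 11.03 FPKM, and with siSRSF1-3 at 47.1, 25.0 and 10.8 FPKM. The siSRSF1-3 group was the widest, with a highest library of 4.36 times the lowest, and its replicate 3 again lay among the siSRSF1-2 libraries. No comparison passed for S100A4: the log2 fold change was -0.62 with siSRSF1-2 (95% interval -1.22 to -0.02, adjusted p = 0.114), 0.54 with siSRSF1-3 (95% interval -0.72 to 1.80, adjusted p = 0.507) and -0.32 with OE-LINC01134 (95% interval -1.15 to 0.51, adjusted p = 0.581). Between the siRNAs it was 1.16 (95% interval -0.08 to 2.41, adjusted p = 0.134), and without siSRSF1-3 replicate 3 it was 1.72 (adjusted p = 0.00630, with a range of 0.00630 to 0.281 over the omissions), while without siSRSF1-3 replicate 1 it was 0.66. Single libraries also set the size of the values against blank cells. For siSRSF1-3 these ran from 0.036 without replicate 1 to 1.09 without replicate 3, and for OE-LINC01134 from -0.65 without OE-LINC01134 replicate 2 to -0.037 without blank replicate 1. The scaling moved the values too. With FPKM brought to an equal sum per library, S100A4 was at 0.095 in siSRSF1-3 against blank cells and at 0.59 between the siRNAs. The medians of all genes were -0.44 and -0.58 in that setting.

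S100A4 overlaps S100A3 on the same strand, so that reads of the shared stretch could be given to either gene. S100A3 held 1271 reads over the libraries against 5618 for S100A4, and it was at 11.4, 6.05 and 3.90 FPKM with siSRSF1-3 and at 3.59 to 3.93 FPKM in blank cells. S100A4 made up 1.04% to 2.16% of the summed FPKM of 16 S100 genes. By group mean it was below S100A11, S100A16, S100A6, S100A2 and S100A10 in all 4 groups, and with siSRSF1-3 also below S100A13 (28.8 against 27.6 FPKM). S100A11 and S100A6, calcium-binding proteins of the same family, had the same order of libraries in the siSRSF1-3 group. S100A11 was at 2169, 894 and 438 FPKM there, against 420 to 505 FPKM in blank cells, and S100A6 was at 870, 453 and 181 FPKM, against 166 to 218 FPKM. The implied library size of the deposited FPKM was 0.712 and 0.888 times the reads on genes in siSRSF1-3 replicates 1 and 2 and 0.990 to 1.09 times in the other libraries, so those libraries were scaled up the most. The part of that scaling in the S100 values was not tested beyond the rescaled fits: with each library at the same sum, the median of the other 10 tested S100 genes was 0.42 in siSRSF1-3 against blank cells, where all genes had a median of -0.44, against 0.86 and -0.01 as deposited. As deposited, siSRSF1-3 replicates 1, 2 and 3 gave these 10 genes medians of 2.01, 0.85 and -0.11 relative to the blank mean, and 0 of the 10 had an unadjusted p under 0.05.

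SNAI1 (ENSG00000124216, chromosome 20 from 49982999 to 49988886) codes for Snail, a zinc finger repressor that binds the CDH1 promoter. It was at 4.71, 6.76 and 7.53 FPKM in blank cells and at 2.39, 3.78 and 3.13 FPKM with OE-LINC01134. In the siSRSF1-2 libraries SNAI1 was at 6.09, 6.11 and 5.47 FPKM, and with siSRSF1-3 at 5.29, 9.64 and 6.07 FPKM. All 3 OE-LINC01134 libraries, replicate 2 included, lay below every other library, while the siRNA groups overlapped the blank group. With OE-LINC01134 the log2 fold change was -1.003 (SE 0.236, 95% interval -1.57 to -0.44, adjusted p = 0.0770). It passed without blank replicate 1 (-1.20, adjusted p = 0.0280) and without OE-LINC01134 replicate 2 (-1.15, adjusted p = 0.0277), where the adjusted p ranged from 0.0277 to 0.282 over the omissions, and in 1 fit over all groups (adjusted p = 0.0399). The values with siSRSF1-2 (-0.08, 95% interval -0.51 to 0.36, adjusted p = 0.774) and siSRSF1-3 (0.12, 95% interval -0.56 to 0.81, adjusted p = 0.791) changed sign with the scaling of the libraries.

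SNAI2 (ENSG00000019549) codes for Slug, a paralog of Snail with similar DNA-binding zinc fingers. It was at 3.32, 6.68 and 7.11 FPKM in blank cells and at 1.17, 1.87 and 1.11 FPKM with OE-LINC01134. In the siSRSF1-2 libraries SNAI2 was at 3.83, 3.17 and 2.97 FPKM, and with siSRSF1-3 at 2.32, 3.04 and 3.17 FPKM. Blank replicate 1 was near the siRNA libraries and the other blank libraries were above all of them, so only siSRSF1-3 and OE-LINC01134 were clear of the blank range. In OE-LINC01134 against blank cells the log2 fold change was -1.93 (SE 0.338, 95% interval -2.73 to -1.12, adjusted p = 0.0524), just short of the threshold. It passed with voom (-2.02, adjusted p = 0.0417), in 1 fit over all groups (adjusted p = 0.00577), without blank replicate 1 (-2.27, adjusted p = 0.0122) and without OE-LINC01134 replicate 2 (-2.15, adjusted p = 0.0164), where the adjusted p over the omissions ranged up to 0.236.

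With siSRSF1-2 the log2 fold change of SNAI2 was -0.69 (95% interval -1.42 to 0.03, adjusted p = 0.138), and without blank replicate 1 it was -1.04 (adjusted p = 0.000977, with a range up to 0.308 over the omissions). With siSRSF1-3 it was -0.92 (95% interval -1.68 to -0.16, adjusted p = 0.129). The siRNAs differed by -0.22 (95% interval -0.66 to 0.21, adjusted p = 0.349). SNAI1 over SNAI2 in FPKM was 1.42, 1.01 and 1.06 in blank cells and lay between 1.59 and 3.17 in every other library.

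ZEB1 (ENSG00000148516, chromosome 10 from 31318495 to 31529814) codes for a zinc finger and homeobox repressor of epithelial genes that microRNAs of the miR-200 family hold down. It was at 5.28, 6.29 and 6.26 FPKM in blank cells and at 5.68, 4.09 and 5.93 FPKM with OE-LINC01134. With siSRSF1-2 it was at 6.37, 6.99 and 7.05 FPKM, and with siSRSF1-3 at 3.00, 2.22 and 4.32 FPKM. The siSRSF1-2 libraries were all just above the blank ones and the siSRSF1-3 libraries all below them, with replicate 3 the highest of the latter.

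The log2 fold change of ZEB1 with siSRSF1-3 was -0.93 (SE 0.263, 95% interval -1.55 to -0.31, adjusted p = 0.0971), and without siSRSF1-3 replicate 3 it was -1.17 (adjusted p = 0.0135, with a range of 0.0135 to 0.299 over the omissions). The siSRSF1-2 value of ZEB1 was 0.20 (95% interval -0.04 to 0.43, adjusted p = 0.185). The difference between the siRNAs was -1.12 (95% interval -1.72 to -0.53, adjusted p = 0.0751), siSRSF1-3 against siSRSF1-2. It passed in 1 fit over all groups (adjusted p = 0.0153) and without siSRSF1-3 replicate 3 (-1.36, adjusted p = 0.00230, with a range up to 0.240). ZEB1 overlaps the antisense transcript ZEB1-AS1, which held 7997 reads over the libraries against 16130 for ZEB1, so an exchange of reads would matter more here than for VIM. ZEB1-AS1 was at 5.74, 6.06 and 6.68 FPKM with siSRSF1-3 and at 3.74, 5.75 and 5.81 FPKM in blank cells, and so did not share the low level of ZEB1.

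TWIST1 (ENSG00000122691), a basic helix-loop-helix factor of the mesoderm, was at or near the limit of detection. It had 0, 11 and 11 reads in the blank libraries and 0 reads in each of the OE-LINC01134 and siSRSF1-2 libraries. With siSRSF1-3 it had 2, 0 and 4 reads. A count of 0 allows up to 3 reads by counting error alone, which is 0.0416 to 0.0580 FPKM for TWIST1 in the libraries where it was at 0. Only blank replicates 2 and 3 stood clear of that limit, at 0.190 and 0.165 FPKM. In siSRSF1-3 replicate 3 TWIST1 was barely above the limit, with 4 reads and 0.0631 FPKM.

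ZEB2 (ENSG00000169554), the paralog of ZEB1, had 0, 28 and 54 reads in the blank libraries. It had 1, 0 and 0 reads with OE-LINC01134, 1, 2 and 0 with siSRSF1-2 and 1, 0 and 1 with siSRSF1-3. Only blank replicates 2 and 3 held more than 3 reads, and even there its level was 0.0393 and 0.0659 FPKM. Blank replicate 1, which correlated best with OE-LINC01134 replicate 2 over all genes, had 0 reads of both TWIST1 and ZEB2.

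Of the 7 Snail, TWIST and ZEB genes, SNAI1 had the highest group mean in blank cells and with siSRSF1-3, and ZEB1 with siSRSF1-2 and OE-LINC01134. Over the 12 libraries SNAI2 had a mean of 3.31 FPKM, TWIST2 of 1.93 FPKM and SNAI3 of 0.696 FPKM. TWIST2, the paralog of TWIST1, was the more abundant TWIST gene: it was at 2.06, 3.02 and 3.78 FPKM in blank cells, at 0.404, 2.42 and 0.522 FPKM with OE-LINC01134, at 1.52 to 1.68 FPKM with siSRSF1-2 and at 1.72 to 2.47 FPKM with siSRSF1-3. The share of ZEB1 in the summed FPKM of these factors was 23.95% to 33.5% in blank cells, 34.1% to 39.4% with siSRSF1-2, 12.9% to 27.4% with siSRSF1-3 and 32.0% to 56.4% with OE-LINC01134. The share of SNAI1 ran from 38.5% to 56.1% with siSRSF1-3, above its range of 28.0% to 29.9% in blank cells.

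VIM was also the leading gene of its own class. Among 13 cytoplasmic intermediate filament genes, VIM made up 44.3% to 61.0% of the summed FPKM in every library, followed by the keratins KRT18 and KRT8 and by the neurofilament gene NEFL. With siSRSF1-2 the keratins were low together with VIM: KRT8 was at 17.98 to 18.7 FPKM against 34.6 to 58.4 FPKM in blank cells and fell by 1.18 on the log2 scale (adjusted p = 0.0109), a call lost without blank replicate 1 or without siSRSF1-2 replicate 2. In the OE-LINC01134 group KRT8 was at 11.4, 44.8 and 10.6 FPKM and KRT18 at 53.0, 102 and 50.9 FPKM, with the same split between replicate 2 and the others as VIM.

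The members were set beside lists of genes of the same processes, chosen by function but with earlier results of these data known. The counts per list and the shares over all genes beside them are therefore a description and not a test of the lists. Among 22 other mesenchymal genes tested, 4 fell with siSRSF1-2 and 0 rose, where 2.73% and 2.22% of all genes did. They were MMP14 and MMP2, proteases of the matrix, LUM, a matrix proteoglycan, and THY1, a surface protein of mesenchymal stem cells. MMP14 was at 15.97, 17.1 and 16.2 FPKM against 36.2, 45.4 and 44.9 FPKM in blank cells (log2 fold change -1.35, adjusted p = 0.00122), and MMP2 was at 18.5, 19.97 and 19.1 FPKM against 39.8, 54.2 and 55.1 FPKM (-1.35, adjusted p = 0.00238). The median of the 22 genes was -0.39, beside 0.02 for all genes. With siSRSF1-3, COL6A1 (-1.23, adjusted p = 0.0453) and MMP14 (-1.45, adjusted p = 0.0483) fell, 0 rose, where 0.929% and 0.331% of all genes did, and the median was -0.69, beside -0.01 for all genes. With OE-LINC01134, LUM fell by 3.38 on the log2 scale, to 0.207, 0.487 and 0.209 FPKM from 2.97, 4.28 and 4.60 FPKM (adjusted p = 0.0199), 0 rose, where 0.593% and 0.257% of all genes fell and rose, and the median was -0.42, beside 0.05 for all genes.

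The 12 epithelial genes other than CDH1 gave a mixed picture. With siSRSF1-2, KRT8 fell and 0 rose, where 2.73% and 2.22% of all genes did, with a median of -0.06. With siSRSF1-3 and with OE-LINC01134, 0 of 12 passed in limma in either direction, where 1.26% and 0.85% of all genes passed. The medians were 0.64 and 0.30. In these comparisons 4 and 3 of the 12 had an unadjusted p under 0.05 (28.8% and 26.3% of all genes), while voom called 0. In siSRSF1-3 against blank cells 6 of the 12 lay above every blank library and 1 below, where 19.2% and 18% of all genes did so. By log2 fold change 8 of the 12 were above 0 and 4 below. EPCAM and ESRP1 were among the 8 and are given after their values were seen, so they do not stand for the list. EPCAM, an adhesion protein of epithelia, was at 2.06 to 2.43 FPKM with siSRSF1-3 and at 0.918 to 1.63 FPKM in blank cells (log2 fold change 0.78, adjusted p = 0.123). ESRP1, the epithelial splicing regulator, was at 3.06 to 3.599 FPKM with siSRSF1-3 and at 0.304, 1.70 and 2.06 FPKM in blank cells (1.58, adjusted p = 0.152), and without blank replicate 1 its difference was 0.81 (adjusted p = 0.127, with a range of 0.127 to 0.332 over the omissions). Rescaling to the same sum lowered the median of the epithelial list in siSRSF1-3 to 0.21, with 7 of 12 genes above 0 in place of 8. The median of all genes moved from -0.01 to -0.44 with the same rescaling.

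**Figure D3:**
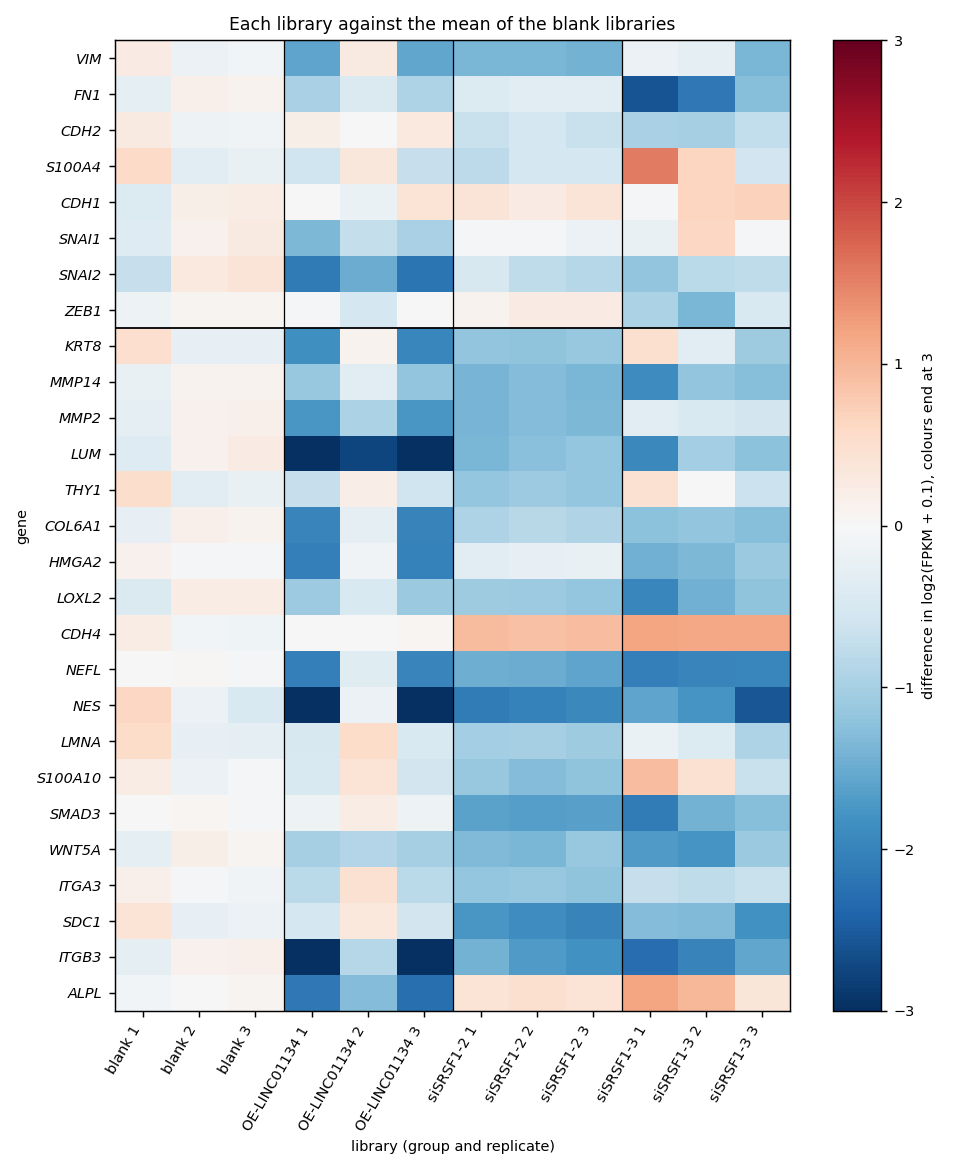
Difference of each library from the mean of the 3 blank libraries in log2(FPKM + 0.1), for the 8 tested members above the line and, below it, the list genes that passed the threshold in at least 1 comparison. The colours of OE-LINC01134 replicate 2 resemble the blank libraries for VIM, KRT8, HMGA2 and COL6A1 but not for SNAI1, SNAI2, LUM and ALPL, and CDH4 and ALPL are above the blank mean in all 6 siRNA libraries.

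Receptors and assembly genes of fibronectin made up a list of 7 tested genes. With siSRSF1-2, ITGB3, ITGA3 and the proteoglycan SDC1 fell, 3 of 7 genes, and 0 rose, where 2.73% and 2.22% of all genes did. The log2 fold changes were -1.64 for ITGB3 (adjusted p = 0.00401), -1.17 for ITGA3 (adjusted p = 0.00105) and -1.87 for SDC1 (adjusted p = 0.00242). The median of the list was -0.88, while FN1 itself was at -0.35. With siSRSF1-3, SDC1 fell (-1.49, adjusted p = 0.0498), where 0.929% of all genes did, and the median was -1.29. With OE-LINC01134 0 of 7 passed in limma (0.85% of all genes) and 3 had an unadjusted p under 0.05 (26.3% of all genes). There voom called 1, and the median was -0.39.

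The inducers and receptors of EMT, among them the TGF-beta and Wnt pathways, had 2 of 15 genes that fell with siSRSF1-2 and 0 that rose. These were SMAD3, a mediator of TGF-beta signalling, and WNT5A, a Wnt ligand. Over all genes 2.73% fell and 2.22% rose in this comparison. SMAD3 was at 3.79, 3.64 and 3.71 FPKM with siSRSF1-2 and at 2.65, 4.29 and 4.75 FPKM with siSRSF1-3, against 11.7, 12.1 and 11.2 FPKM in blank cells. The log2 fold changes were -1.62 (adjusted p = 0.000490) and -1.60 (adjusted p = 0.0453). With OE-LINC01134 SMAD3 was at 10.4, 13.5 and 10.5 FPKM, and 0 of 15 genes passed (0.85% of all genes). Of the 15, 6 had an unadjusted p under 0.05 (26.3% of all genes) and 1 was called by voom.

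The partners and regulators of the EMT factors mostly did not pass. Over all genes, 2.73% fell and 2.22% rose with siSRSF1-2. These shares were 0.929% and 0.331% with siSRSF1-3 and 0.593% and 0.257% with OE-LINC01134. An unadjusted p under 0.05 was met by 40.3%, 28.8% and 26.3% of all genes in these comparisons, and by 42.1% between the siRNAs. Of 12 other EMT transcription factors, HMGA2, an architectural chromatin protein, fell with siSRSF1-3 (-1.30, adjusted p = 0.0426), to 4.48, 4.80 and 5.63 FPKM from 13.5, 11.9 and 11.8 FPKM, and 0 passed with siSRSF1-2 or OE-LINC01134, where 7 and 3 had an unadjusted p under 0.05 and voom called 0. Of 10 corepressors 0 passed in limma or voom in any comparison, with 1 to 4 at an unadjusted p under 0.05. The histone deacetylase HDAC1, the most abundant of them, was at 25.5 to 36.0 FPKM over all libraries. Of 7 genes that set the stability of SNAI1, LOXL2, a lysyl oxidase that stabilises Snail, fell with siSRSF1-2 (-1.11, adjusted p = 0.00985). The other 6 had a log2 fold change above 0 in that comparison, and the median of the 7 was 0.20. With siSRSF1-3 0 of the 7 passed in limma and voom called 1. Of 7 EMT splicing factors 0 passed in limma or voom, with 1 to 5 at an unadjusted p under 0.05. Of 6 catenins 0 passed in limma, with 1 to 3 at an unadjusted p under 0.05, and voom called 1 with siSRSF1-3. The osteoblast marker ALPL, the alkaline phosphatase of bone-forming cells, fell with OE-LINC01134 (-1.91, adjusted p = 0.0402), to 1.21, 2.22 and 1.09 FPKM from 5.30, 5.73 and 5.94 FPKM. Among 6 intermediate filament genes other than VIM and the keratins, NES, NEFL and LMNA fell with siSRSF1-2 and NEFL with siSRSF1-3. NEFL was at 4.87, 4.79 and 4.52 FPKM with siSRSF1-2 and at 3.22, 3.39 and 3.44 FPKM with siSRSF1-3, against 13.5, 14.2 and 13.5 FPKM in blank cells. Of 10 tested S100 genes other than S100A4, S100A10 fell with siSRSF1-2 (-1.21, adjusted p = 0.00208). Between siSRSF1-3 and siSRSF1-2 0 list genes passed in limma, and voom called 1 mesenchymal marker and 1 transcription factor.

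Calls of list genes with siSRSF1-3 and with OE-LINC01134 depended on single libraries. Without blank replicate 2, blank replicate 3 or siSRSF1-3 replicate 2, 0 genes of the whole table passed in siSRSF1-3 against blank cells, and so each of the calls above was lost. LUM and ALPL with OE-LINC01134 lost their calls without blank replicate 2 or 3 or OE-LINC01134 replicate 1 or 3, with the adjusted p of LUM then from 0.104 to 0.148. With siSRSF1-2, THY1, LOXL2, LMNA and KRT8 lost their calls with at least 1 omission, and MMP14, MMP2, LUM, NES, NEFL, S100A10, SMAD3, WNT5A, ITGB3, ITGA3 and SDC1 kept theirs in all 6.

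The members were not 1 coordinated group across the libraries. Over 12 libraries, on the log2 scale, the highest correlations between members were r = 0.83 for FN1 and ZEB1, r = 0.81 for SNAI1 and SNAI2 and r = 0.73 for VIM and S100A4, and the lowest was r = -0.75 for S100A4 and ZEB1. VIM and CDH2 had r = 0.08. The 12 points hold close replicates and group differences, so these values describe the series and carry no test.

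Among all genes tested, the nearest to VIM over the 12 libraries were those of tubulin beta 2B class IIb (r = 0.98) and Ras and Rab interactor 1 (r = 0.98). FN1 was nearest to ATP binding cassette subfamily C member 1 and bone morphogenetic protein receptor type 2 (r = 0.99 for both). CDH2 was nearest to cell division cycle 7 (r = 0.99) and cell division cycle associated 2 (r = 0.98). S100A4 was nearest to HGH1 homolog and to NOP2/Sun RNA methyltransferase family member 5, both at r = 0.98 to 0.99. SNAI2 was nearest to aldolase, fructose-bisphosphate C (r = 0.99) and MAGE family member L2 (r = 0.98). ZEB1 was nearest to RAS p21 protein activator 2 and MINDY lysine 48 deubiquitinase 2 (r = 0.97 for both). SNAI1 was nearest to family with sequence similarity 19 member A3 (r = 0.96) and HCLS1 binding protein 3 (r = 0.94), and CDH1 to zinc finger AN1-type containing 3 (r = 0.93) and MPV17 (r = 0.92). These genes were picked as the highest of 17538 over 12 points that hold close replicates, so the values are a description.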

How the data were processed

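Total RNA of 12 U2OS libraries had been sequenced by the authors. Per the labels the libraries were made with a SMARTer kit, while the supplementary methods name NEBNext with poly-T selection and 150 bp paired-end reads. Aligner and counting program are not given in the sources used here, and the builds in the submitters' processing notes are mouse builds, which cannot hold for the human identifiers of the table. The authors deposited FPKM per gene with gene lengths and coordinates. These FPKM carry median-of-ratios size factors. Samples were grouped by the labels and columns by their names. Reads were recovered from FPKM times length, and 100% of values were whole within 0.01 of a read.

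Each pair of groups (3 + 3 libraries) was compared in R 4.3.3 by limma 3.58.1, with a linear model and trended empirical Bayes moderation, on log2(FPKM + 0.1), over 17538 of 58735 genes with a mean of at least 0.5 FPKM, with Benjamini-Hochberg adjustment over all of them. A pseudocount of 0.1 understates the change of low genes. Tables and figures were made in Python 3.11.15. The members and the gene lists were chosen with earlier results of these data known. The lists hold 209 symbols, of which 209 were matched by full name and 135 were tested. Genes named were the members, SRSF1 and LINC01134 as checks, up to 5 list genes past the threshold per list by smallest adjusted p (or, if none passed, the 2 of highest mean FPKM), genes overlapping a member, and the 2 most correlated genes per member. Paralogs of members and other list genes given for level were added after their values were seen. The fit was run on simulated reads for siSRSF1-2 against blank cells only. All replicates of a group had the same mean there, so the simulation does not cover libraries that stand apart.

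Deviations of replicates with the same number did not correlate (r from -0.08 to 0.04), so the numbers were not taken to pair samples. Alternatives were pseudocounts of 1 and 0.01, no filter or a mean of at least 1 FPKM, own read totals, equal sums, no trend, 1 fit over 4 groups, voom on the recovered reads, a replicate block, the adjusted p alone and the omission of each library. Counting floors of 3 reads cover counting error only. No sequences were printed, since no human reference was used here.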

Additional observations from a re-analysis of the deposited data

Results flagged for a closer look

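ZEB1 was picked out because, in FPKM, every library of a group lay on the opposite side of the blank mean from every library of another group. The mean of the siSRSF1-3 libraries minus that of the siSRSF1-2 libraries was -3.63 FPKM, with all siSRSF1-3 libraries below the blank mean of 5.94 FPKM and all siSRSF1-2 libraries above it. The test of that difference in limma gave -1.12 on the log2 scale with an adjusted p of 0.0751. ZEB1 in OE-LINC01134 minus siSRSF1-2 was -1.57 FPKM, and that difference was not tested. This pair rests on OE-LINC01134 replicate 3, at 5.933 FPKM against a blank mean of 5.942 FPKM, and on the log2 scale that library lay above the blank mean by 0.0024. OE-LINC01134 replicates 1 and 3 were within the blank range of 5.28 to 6.29 FPKM.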

How the results depend on the processing

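The number of members past the threshold was small and moved with the setting. With siSRSF1-2 it was 1, with 0 in 1 fit over all 4 groups, 2 by the adjusted p alone and 1 to 2 when single libraries were left out. With siSRSF1-3 it was 0, with 1 for a pseudocount of 1, a mean of at least 1 FPKM, 1 fit over all groups and voom, and 0 to 2 over the omissions. With OE-LINC01134 it was 0, with 2 in 1 fit, 1 with voom and 0 to 3 over the omissions. Between the siRNAs it was 0, with 2 in 1 fit and 0 to 4 over the omissions, the highest without siSRSF1-3 replicate 3.

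All genes past the threshold numbered 868 with siSRSF1-2, 379 with a pseudocount of 1, 314 in 1 fit, 4702 by the adjusted p alone and 534 to 1188 over the omissions. In siSRSF1-3 against blank cells they numbered 221, 63 with a pseudocount of 0.01, 116 without a filter, 69 with own read totals, 1 with equal sums, 2422 in 1 fit, 587 with voom, 0 with the replicate block and 0 to 4184 over the omissions. With OE-LINC01134 they numbered 149, 81 without a filter, 689 in 1 fit, 348 with voom, 4 with the replicate block and 1 to 1540 over the omissions. Between the siRNAs they numbered 15, 84 and 1 with pseudocounts of 1 and 0.01, 109 without a filter, 36 with a mean of at least 1 FPKM, 8 with equal sums, 2731 in 1 fit, 110 with voom, 0 with the replicate block and 0 to 5358 over the omissions. The replicate block changed no call of a member. It ended those of the list genes with siSRSF1-3 and OE-LINC01134, with adjusted p of 0.145 and 0.0855. The cause was not tested.

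Directions reversed for SNAI1 and CDH1. SNAI1 in siSRSF1-2 against blank cells became 0.052 with equal sums and ranged from -0.27 to 0.058 over the omissions. SNAI1 in siSRSF1-3 against blank cells became -0.13 with own read totals and -0.32 with equal sums, and ranged from -0.13 (without siSRSF1-3 replicate 2) to 0.30, with -0.07 without blank replicate 1. CDH1 with OE-LINC01134 ranged from -0.14 (without blank replicate 1) to 0.19, with -0.11 without OE-LINC01134 replicate 3. Between the siRNAs CDH1 became -0.16 with own read totals and -0.38 with equal sums, and ranged from -0.044 (without siSRSF1-3 replicate 3) to 0.33. SNAI1 became -0.10 and -0.37 there, and ranged from -0.052 (without siSRSF1-3 replicate 2) to 0.37.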
